A study of Mus musculus with 8 samples.

Results

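Aldh1a3 and 6 other genes that handle retinol and retinaldehyde, the alcohol and aldehyde forms of vitamin A, were followed in pancreatic islets of ob/ob and ob/+ mice. The 7 genes, Aldh1a1, Aldh1a2, Aldh1a3, Rdh10, Dhrs3, Crabp2 and Stra6, were taken by name from 20715 listed genes, and each had a value in all 8 libraries. They were chosen with values of this same comparison in view, so their levels are given as a description, with no test. The samples were islets hand-picked from 12-week-old C57BL/6 mice, 4 libraries of genotype ob/ob and 4 of genotype ob/+. Both groups carry the ob mutation of Lep, the leptin gene, on both copies in ob/ob mice and on 1 copy in ob/+ mice. Mice without leptin overeat, grow obese and need more insulin, and every cell of the animal carries the mutation. Lep had no value in any of the 8 libraries, so its transcript gives no check of the genotype. Whether the libraries come from separate mice is not labelled, and the p-values therefore reflect library-to-library spread, some of which may be technical.

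Retinol travels in blood on the carrier Rbp4 and can enter cells through the membrane receptor Stra6. Inside the cell, Rdh10 oxidises retinol to retinaldehyde, Dhrs3 reduces retinaldehyde back to retinol, and the dehydrogenases Aldh1a1, Aldh1a2 and Aldh1a3 oxidise retinaldehyde to retinoic acid in a step that is not reversed. Retinoic acid is carried to the nucleus by Crabp2, acts through the receptors of the Rar and Rxr families and is broken down by the Cyp26 enzymes. In islets, Aldh1a3 is best known for marking beta cells that lose their function in diabetic mice.

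The 3 dehydrogenases are paralogs, and their coding sequences show how far apart they are. The stretches below, of 60 bases each, were read 5′ to 3′ along the coding strand from GENCODE M21 transcripts (GRCm38). They hold the codon of the catalytic cysteine, in capitals, and Aldh1a7, a further mouse paralog, is set beside them.
Aldh1a3: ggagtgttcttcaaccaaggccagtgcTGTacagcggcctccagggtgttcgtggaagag
Aldh1a1: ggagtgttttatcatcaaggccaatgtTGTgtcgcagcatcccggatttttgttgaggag
Aldh1a2: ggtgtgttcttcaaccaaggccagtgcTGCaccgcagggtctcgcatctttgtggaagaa
Aldh1a7: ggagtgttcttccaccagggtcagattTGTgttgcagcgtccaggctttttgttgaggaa
Within this stretch Aldh1a3 differed from Aldh1a1 at 18 bases and from Aldh1a2 at 13. Over the whole coding sequence Aldh1a3 shared 68.6% of aligned bases with Aldh1a1 and 69.6% with Aldh1a2. Aldh1a1 and Aldh1a7 shared 91.6%, so the division of reads between that pair is uncertain in counting. Aldh1a3 lies on the minus strand at chr7:66390890-66427517 (GRCm38) with no other annotated gene over it.

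Promoter sequences bear on the genes around the pathway, because the retinoic acid receptors bind direct repeats of a short half-site. The 4 promoters below are of genes whose values are given further on. They come from RefSeq (GRCm38.p6), cover 250 bases before the gene's start and 50 after it, and are written 5′ to 3′ along the gene's strand. Capitals mark a direct repeat of half-sites on either strand (the letters AGGTCA or the variants AGTTCA or GGTTCA or GGGTCA), with 1, 2 or 5 bases between them.
Bco1, chr8:117095615-117095914, plus strand: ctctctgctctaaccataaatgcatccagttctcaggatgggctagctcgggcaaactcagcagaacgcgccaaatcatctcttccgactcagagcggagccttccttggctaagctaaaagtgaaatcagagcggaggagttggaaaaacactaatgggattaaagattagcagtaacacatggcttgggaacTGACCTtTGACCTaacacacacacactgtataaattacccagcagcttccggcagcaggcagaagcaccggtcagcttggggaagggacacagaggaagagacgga
Cyp26b1, chr6:84593761-84594060, minus strand: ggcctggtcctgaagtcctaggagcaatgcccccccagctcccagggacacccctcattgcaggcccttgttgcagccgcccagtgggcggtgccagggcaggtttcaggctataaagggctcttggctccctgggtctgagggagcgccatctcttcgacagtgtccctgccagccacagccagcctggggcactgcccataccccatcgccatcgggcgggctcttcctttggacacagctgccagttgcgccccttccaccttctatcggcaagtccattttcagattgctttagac
Cyp26a1, chr19:37697558-37697857, plus strand: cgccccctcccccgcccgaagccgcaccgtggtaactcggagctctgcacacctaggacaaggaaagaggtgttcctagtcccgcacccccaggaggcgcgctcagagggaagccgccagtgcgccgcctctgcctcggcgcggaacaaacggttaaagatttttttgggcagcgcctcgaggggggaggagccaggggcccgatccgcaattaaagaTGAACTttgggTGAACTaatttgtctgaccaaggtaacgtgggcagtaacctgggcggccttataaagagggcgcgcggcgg
Rarb, chr14:16575427-16575726, minus strand: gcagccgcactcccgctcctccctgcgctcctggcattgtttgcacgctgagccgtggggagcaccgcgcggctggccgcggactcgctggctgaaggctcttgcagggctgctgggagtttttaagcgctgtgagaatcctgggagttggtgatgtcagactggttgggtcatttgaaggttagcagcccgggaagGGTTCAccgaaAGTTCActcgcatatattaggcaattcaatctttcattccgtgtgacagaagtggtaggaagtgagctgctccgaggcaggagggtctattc
The repeat in Bco1 had a spacing of 1 base, found in 0.222% of the 32851 promoters searched, and those in Cyp26a1 and Rarb a spacing of 5 bases, found in 0.097%. The spacing of 2 bases occurred in 0.268%. No such repeat was in the Cyp26b1 window. Among the 7 genes, 4 had promoters in the table (10 in all), and none of those 10 held such a repeat. They were Aldh1a1, Aldh1a2, Dhrs3 and Stra6. No promoter was at hand for Aldh1a3, Rdh10 or Crabp2, so theirs were not searched. Of 61 other pathway genes, 46 had promoters and the 3 shown here held a repeat. The half-sites were chosen with the sequences in view, and a match describes letters, not binding. Nor does a match at any of the 3 spacings tell which receptor, if any, would bind it.

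Levels are in FPKM, fragments per kilobase of transcript scaled to the library, so that genes of different length can be set side by side. Between 11363 and 11883 genes per library reached 1 FPKM, and summed FPKM ran from 920734 to 1004230 in ob/ob and from 820968 to 880570 in ob/+. Markers of acinar cells, which make digestive enzymes and surround the islets, gave 11.4%, 3.28%, 6.37% and 6.45% of summed FPKM in ob/ob libraries 1 to 4, and 10.6%, 7.57%, 13.9% and 25.7% in ob/+ libraries 1 to 4. Library ob/+ 4 thus had the largest share. The islet label was borne out by its markers, with 10 beta cell markers summing to 587168 to 709761 FPKM in ob/ob and 397506 to 500785 FPKM in ob/+. Insulin and Iapp made up most of those sums, and of the 10 markers 2 rose and 4 fell in ob/ob. In such bulk samples fewer cells of a type and less RNA per cell cannot be told apart.

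**Figure D1:**
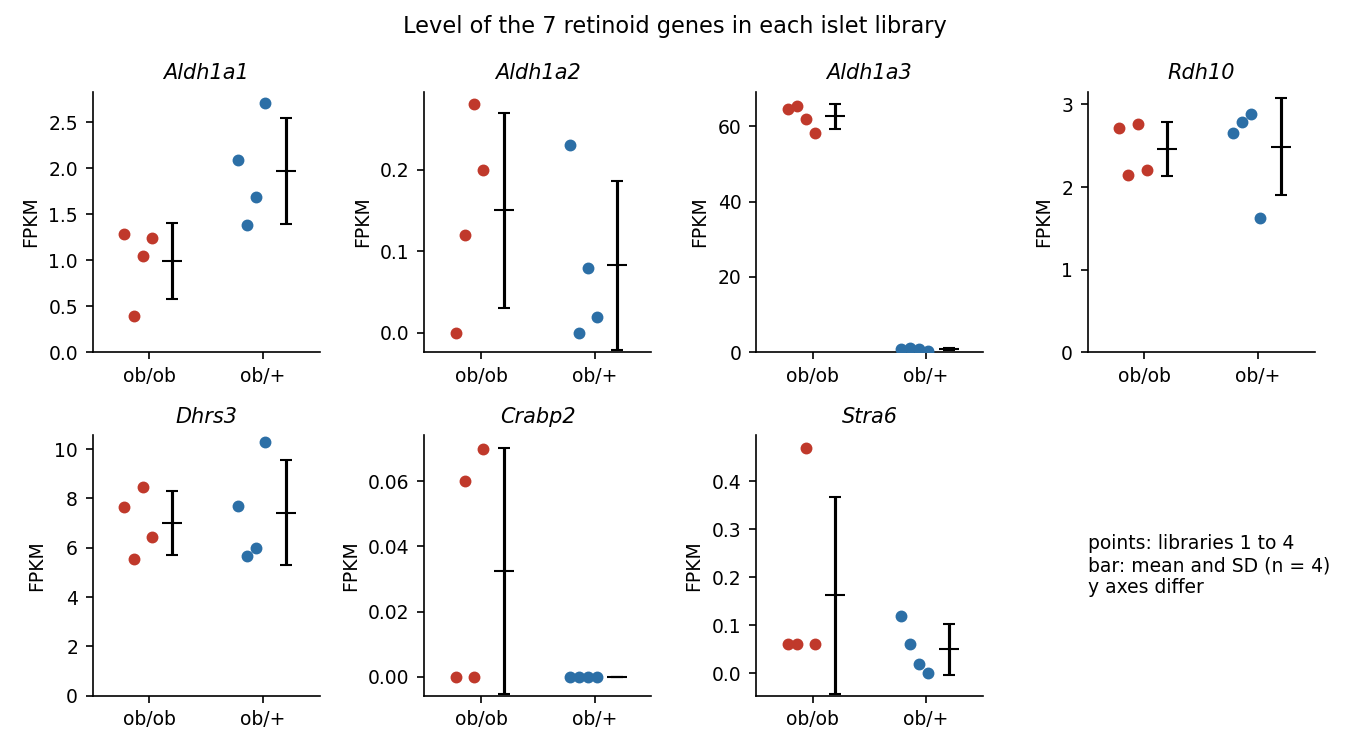
FPKM of each of the 7 genes in every library, with ob/ob left and ob/+ right; points are libraries, bars the mean and SD of 4, and the y axes differ. Aldh1a3 sits at 58.3 to 65.5 FPKM in ob/ob and at 0.37 to 1.15 FPKM in ob/+, while Rdh10, Dhrs3, Aldh1a2, Crabp2 and Stra6 have overlapping groups.

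Of the 3 dehydrogenases that make retinoic acid, Aldh1a3 was at 64.6, 65.5, 62.0 and 58.3 FPKM in ob/ob libraries 1 to 4, against 0.80, 1.15, 0.75 and 0.37 FPKM in ob/+ libraries 1 to 4. Every ob/ob library lay far above every ob/+ library, and within ob/ob the spread was small beside the level. The means were 62.6 ± 3.23 FPKM in ob/ob and 0.767 ± 0.319 FPKM in ob/+ (SD, n = 4 each), 81.5-fold. On the log2(FPKM + 1) scale, which understates changes from low levels, the difference was 5.19 ± 0.13 (SE), the largest positive difference of 11747 genes tested. By mean level Aldh1a3 was the 660th of 17401 genes with a value in ob/ob and the 12114th in ob/+. The lowest ob/+ value stood in the library with most acinar RNA. With the acinar share as a covariate the difference was 4.99.

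Aldh1a1 had the opposite order of groups. It was at 1.28, 0.39, 1.04 and 1.24 FPKM in ob/ob libraries 1 to 4, against 2.09, 1.38, 1.69 and 2.71 FPKM in ob/+ libraries 1 to 4. The highest ob/ob library lay just below the lowest ob/+ library. The means were 0.988 ± 0.412 FPKM in ob/ob and 1.97 ± 0.574 FPKM in ob/+ (SD, n = 4 each), a log2 difference of -0.59 ± 0.16 (SE). In ob/ob the 4 libraries had the same order by Aldh1a1 as by acinar share. In ob/+ library 2 was lowest and library 4 highest in both, with libraries 1 and 3 in the other order. At like acinar shares, ob/ob 1 (11.4%) had 1.28 FPKM and ob/+ 1 (10.6%) had 2.09 FPKM. In another such pair the gap was small, with 1.24 FPKM in ob/ob 4 (6.45%) and 1.38 FPKM in ob/+ 2 (7.57%). With the acinar share as a covariate the log2 difference of Aldh1a1 was -0.20, and the part of acinar RNA in its level was not tested. Aldh1a7 was at 0.71, 0.22, 0.34 and 0.65 FPKM in ob/ob libraries 1 to 4 and at 0.79, 0.20, 0.80 and 1.84 FPKM in ob/+ libraries 1 to 4, in the order of the acinar share within each genotype.

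**Figure D2:**
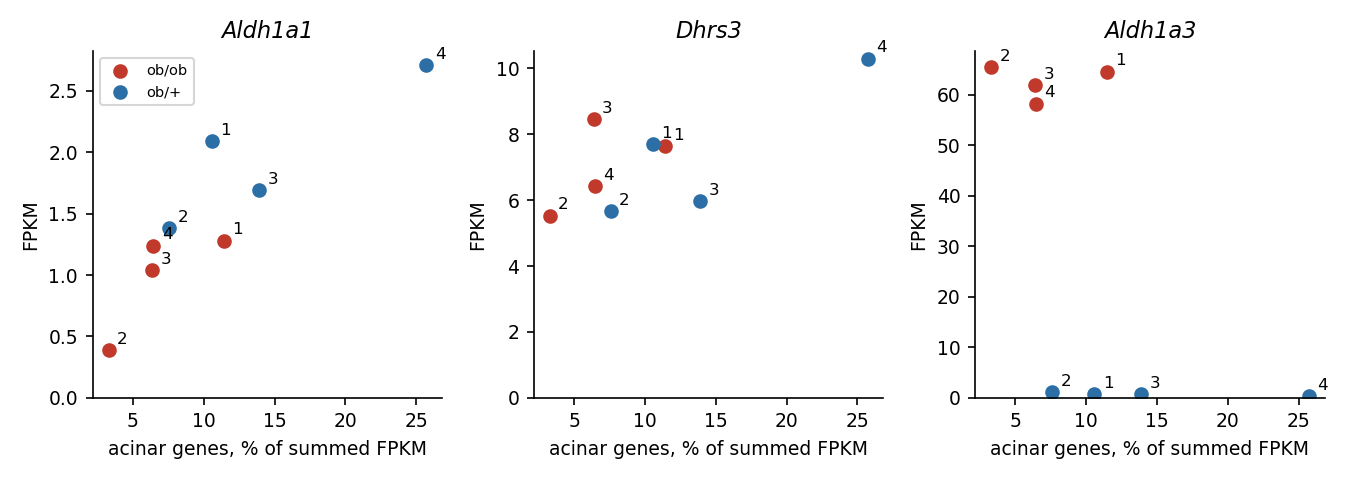
FPKM of Aldh1a1, Dhrs3 and Aldh1a3 (y) against the percent of summed FPKM in acinar markers (x), 1 point per library, numbered by replicate. Aldh1a1 is lowest at the smallest share (0.39 FPKM at 3.28%) and highest at the largest (2.71 FPKM at 25.7%), and Aldh1a3 is at 58.3 to 65.5 FPKM in ob/ob at shares of 3.28% to 11.4% and at 0.37 to 1.15 FPKM in ob/+ at shares of 7.57% to 25.7%.

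Aldh1a2, the main retinoic acid maker of the embryo, was near 0. It was at 0.00, 0.12, 0.28 and 0.20 FPKM in ob/ob libraries 1 to 4, against 0.23, 0.00, 0.08 and 0.02 FPKM in ob/+ libraries 1 to 4. The groups overlapped. Markers of mesothelium, a cell type known to hold Aldh1a2, were near 0 apart from Msln and Gpm6a: Upk3b, Upk1b, Lrrn4 and Wt1 stayed at or below 0.14 FPKM in every library. Msln was at 3.64 ± 1.08 FPKM in ob/ob and 25.0 ± 7.14 FPKM in ob/+ (SD, n = 4 each). The 6 mesothelium markers with a value summed to 3.03 to 5.80 FPKM in ob/ob and 20.7 to 36.8 FPKM in ob/+, and their part in the level of Aldh1a2 was not tested.

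The summed level of Aldh1a1, Aldh1a2 and Aldh1a3 was 63.7 ± 2.94 FPKM in ob/ob and 2.82 ± 0.338 FPKM in ob/+ (SD, n = 4 each). Aldh1a3 made up 98.1%, 99.2%, 97.9% and 97.6% of that sum in ob/ob libraries 1 to 4, and 25.6%, 45.5%, 29.8% and 11.9% in ob/+ libraries 1 to 4. The mean share was 98.2% ± 0.714 (SD, n = 4) for ob/ob and 28.2% ± 13.8 (SD, n = 4) for ob/+. Aldh1a1 held most of the sum in each ob/+ library.

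**Figure D3:**
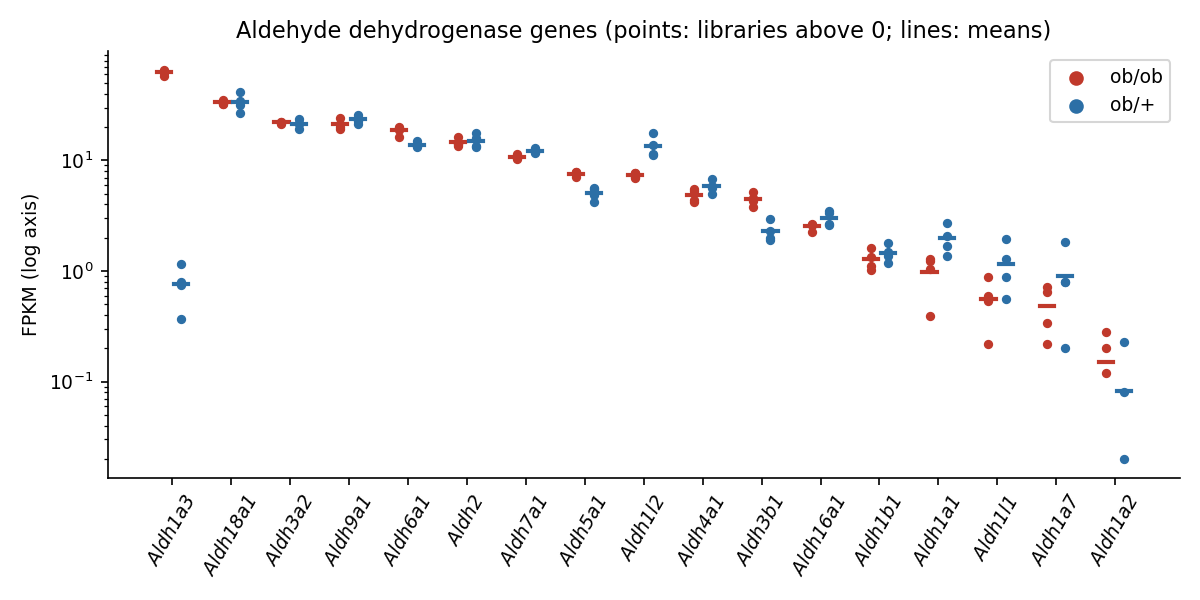
FPKM on a log axis of the 17 aldehyde dehydrogenase genes with a mean above 0.05 FPKM in both groups, ob/ob left of ob/+ for each gene; points are libraries above 0 and lines are means. Aldh1a3 leads in ob/ob at 62.6 FPKM and lies near the low end in ob/+ at 0.767 FPKM.

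Beside the whole aldehyde dehydrogenase family, Aldh1a3 had the highest mean level of 20 genes in ob/ob and the 16th in ob/+. Aldh18a1, which makes the proline precursor pyrroline-carboxylate, was next in ob/ob at 32.3 to 35.5 FPKM, with the mean of Aldh1a3 1.87 times its mean, and first in ob/+ at 26.9 to 41.6 FPKM. It did not pass the test (log2 fold change 0.01 ± 0.11 SE, limma adjusted p = 0.976), although it passed as lower when library totals were taken without acinar genes (-0.29, adjusted p = 0.0138). Of 12 tested family genes outside the 7, limma with Benjamini-Hochberg adjustment called 3 higher and 1 lower in ob/ob, which is 33.3% against 18.8% of all tested genes. When totals were taken without acinar genes the counts were 2 higher and 8 lower, in a setting that called 7552 of the 11747 tested genes.

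The family genes that rose were Aldh3b1, which oxidises lipid aldehydes, Aldh5a1, of the breakdown of the transmitter GABA, and Aldh6a1, of valine breakdown. Aldh3b1 was at 4.53, 4.33, 5.19 and 3.79 FPKM in ob/ob and at 2.96, 1.92, 1.99 and 2.30 FPKM in ob/+ (log2 fold change 0.73 ± 0.13 SE, adjusted p = 0.000186). Aldh5a1 averaged 7.62 ± 0.327 FPKM in ob/ob and 5.05 ± 0.667 FPKM in ob/+ (0.52 ± 0.12 SE, adjusted p = 0.00290). Aldh6a1 averaged 18.7 ± 1.75 FPKM in ob/ob and 13.9 ± 0.796 FPKM in ob/+ (0.40 ± 0.11 SE, adjusted p = 0.0101; SD, n = 4 each), and its call ended when totals were taken without acinar genes (0.12, adjusted p = 0.364). Aldh1l2, a mitochondrial enzyme of folate metabolism, fell to 7.33 ± 0.373 FPKM in ob/ob, against 13.5 ± 2.94 FPKM in ob/+ (-0.79 ± 0.13 SE, adjusted p = 7.90e-05). The groups of these 4 genes did not overlap. Aldh1l2 and Aldh6a1 each overlap another gene on the opposite strand, D10Wsu102e (up to 3.81 FPKM) and Bbof1 (up to 0.90 FPKM), and whether counting used strand is not given.

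The retinaldehyde-forming and retinaldehyde-reducing members had like levels in both genotypes. Rdh10 was at 2.72, 2.15, 2.76 and 2.21 FPKM in ob/ob libraries 1 to 4, against 2.66, 2.79, 2.89 and 1.62 FPKM in ob/+ libraries 1 to 4. The ob/ob values lay inside the range of ob/+ (log2 difference 0.00 ± 0.14 SE), whose low end was library 4. Dhrs3 was at 7.64, 5.53, 8.47 and 6.42 FPKM in ob/ob libraries 1 to 4, against 7.71, 5.68, 5.97 and 10.3 FPKM in ob/+ libraries 1 to 4. Its groups overlapped (log2 difference -0.05 ± 0.16 SE), and its highest value stood in ob/+ library 4. With the acinar share as a covariate the difference of Dhrs3 was 0.27.

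The retinoic acid carrier Crabp2 was at 0.06 and 0.07 FPKM in ob/ob libraries 2 and 4, listed at 0 in ob/ob libraries 1 and 3, and at 0 in all 4 ob/+ libraries. The retinol receptor Stra6 was at 0.06, 0.06, 0.47 and 0.06 FPKM in ob/ob libraries 1 to 4, against 0.12, 0.06, 0.02 and 0.00 FPKM in ob/+ libraries 1 to 4. Its ob/ob mean of 0.163 FPKM rested on library 3. Without that library the log2 difference was 0.02, and with all libraries 0.13. Stra6 overlaps Ccdc33, on the opposite strand, which reached 1.22 FPKM. Of 11 housekeeping genes looked up, none was at 0 in any library.

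In order of mean level, ob/ob islets had Aldh1a3, Dhrs3, Rdh10, Aldh1a1, Stra6, Aldh1a2 and Crabp2. The ranges of the first 4 did not overlap each other, whereas Aldh1a1 and Stra6, and the last 3 among themselves, overlapped. In ob/+ islets the order was Dhrs3, Rdh10, Aldh1a1, Aldh1a3, Aldh1a2, Stra6 and Crabp2. There Rdh10 and Aldh1a1 overlapped, Aldh1a3 lay below Aldh1a1 and above Aldh1a2 in every library, and Aldh1a2, Stra6 and Crabp2 overlapped. Of the 7 genes, 4 reached 1 FPKM in at least 4 libraries and were in the limma fit, Aldh1a3 through its ob/ob libraries. The groups did not overlap for Aldh1a3 (higher) and Aldh1a1 (lower), as for 20.5% of all tested genes. As the 7 genes were chosen on this comparison, no test outcome is given for them and nothing is read from that count. Over all tested genes 18.8% met adjusted p under 0.05, 965 (8.21%) higher and 1243 (10.6%) lower in ob/ob. The split depended on the scaling: 1823 higher and 1606 lower with median centring, 1272 and 629 when totals were taken without the 10 most abundant genes, and 483 and 7069 without acinar genes.

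The other genes of retinoid handling were grouped by role. Of 61 listed, 57 had a value and 32 were tested, of which 4 rose (Cyp26b1 among them, tested through its ob/ob libraries alone) and 6 fell in ob/ob, with a median log2 fold change of -0.05 against -0.07 over all tested genes. That share of 31.2% stood beside 18.8% of all tested genes. The counts were 6 higher and 4 lower when totals were taken without the 10 most abundant genes, and 3 higher and 16 lower without acinar genes, a setting in which the median of all tested genes was -0.33. Without ob/+ 1 they were 2 higher and 4 lower.

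**Figure D4:**
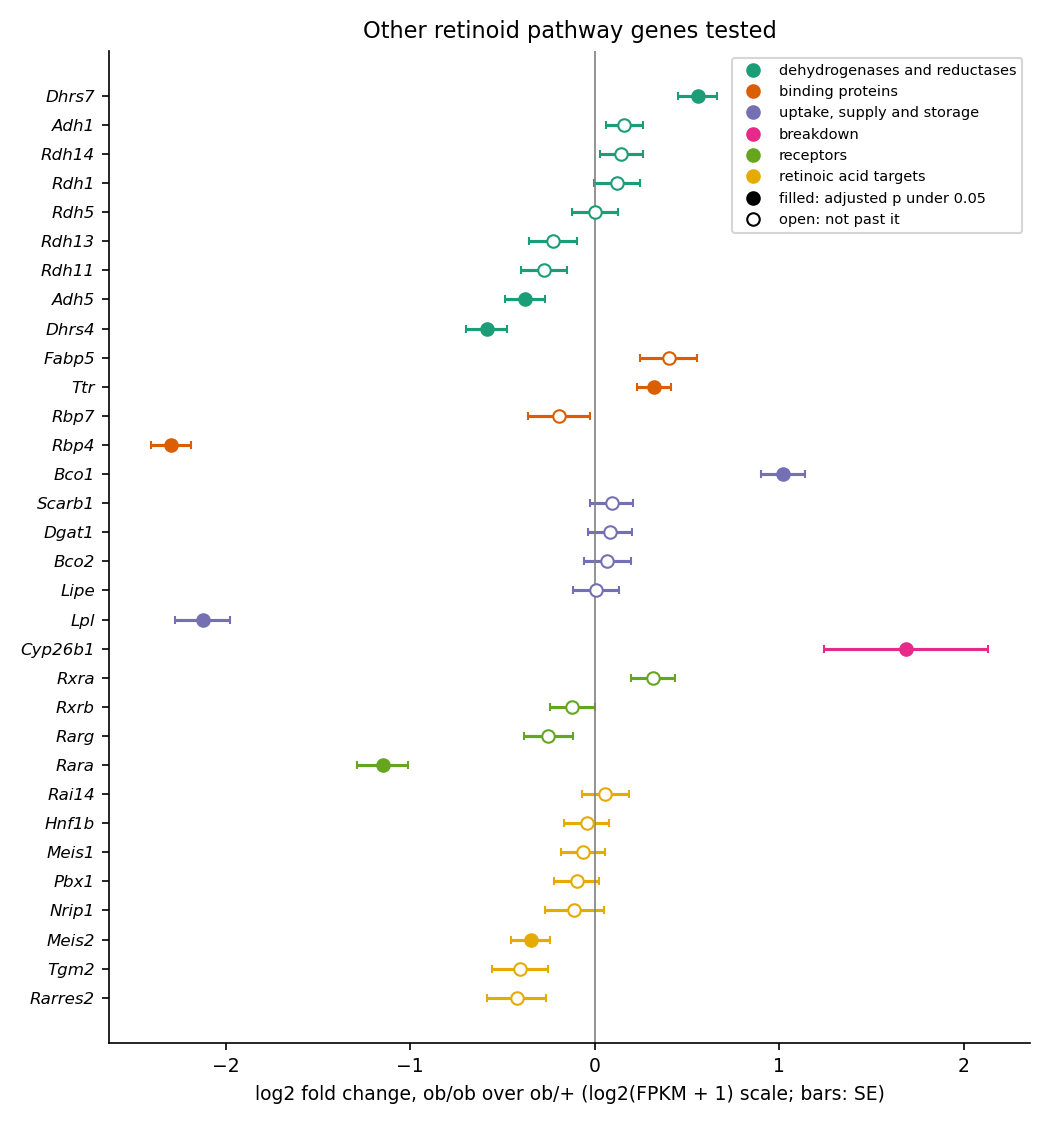
Log2 fold change of ob/ob over ob/+ (x, log2(FPKM + 1) scale, bars SE) for the 32 tested retinoid pathway genes outside the 7, grouped by role; filled points passed adjusted p under 0.05. Rbp4 and Lpl lie furthest left and Cyp26b1 and Bco1 furthest right, Cyp26b1 with the widest bar.

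Of 6 tested genes of uptake, supply and storage, 1 rose and 1 fell, 33.3% against 18.8% of all tested genes. Bco1, which cleaves beta-carotene into retinaldehyde, was at 6.83, 7.31, 6.41 and 5.98 FPKM in ob/ob libraries 1 to 4, against 3.15, 2.75, 2.61 and 2.51 FPKM in ob/+ libraries 1 to 4. Every ob/ob library exceeded every ob/+ library (2.41-fold by means, log2 fold change 1.02 ± 0.12 SE, adjusted p = 6.26e-07). The Bco1 promoter is the one shown with a 1-base repeat, and any part of that repeat in its level was not tested. Lpl, the lipase that frees fatty acids and eases uptake of retinyl esters from lipoproteins, was at 3.63, 4.13, 5.50 and 7.12 FPKM in ob/ob, against 21.7, 26.1, 27.9 and 24.7 FPKM in ob/+ (4.92-fold lower, -2.13 ± 0.15 SE, adjusted p = 2.13e-09). The other 4 tested genes of uptake and storage, Dgat1, Lipe, Scarb1 and Bco2, did not pass. Lrat, which esterifies retinol for storage, stayed at or below 0.07 FPKM in every library.

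The carriers went in both directions. Rbp4 was at 16.5, 22.4, 22.7 and 22.5 FPKM in ob/ob libraries 1 to 4, against 109.6, 98.2, 108.1 and 109.9 FPKM in ob/+ libraries 1 to 4 (5.07-fold lower, log2 fold change -2.30 ± 0.11 SE, adjusted p = 1.10e-13). Rbp4 is also a delta cell marker in mouse islets, and the 6 delta and PP cell markers, Rbp4 included, summed to 3747 to 5906 FPKM in ob/ob and 12580 to 17219 FPKM in ob/+. Sst, Ppy and Pyy made up nearly all of those sums. By means Sst was 4.55-fold lower in ob/ob, Ghsr (below 1 FPKM in every library) 3.87-fold, Ppy 2.92-fold, Hhex 2.65-fold and Pyy 2.24-fold. The part of delta and PP cells in the fall of Rbp4 was not tested. Ttr, which binds Rbp4 in blood, was at 1556 to 1968 FPKM in ob/ob and 1250 to 1614 FPKM in ob/+ (0.32 ± 0.09 SE, adjusted p = 0.0141). The groups of Ttr overlapped, and its call ended without ob/ob 4 (adjusted p = 0.0548) or ob/+ 1 (0.0626), with the acinar share as a covariate (0.207), without limma's robust option (0.101) and when totals were taken without acinar genes (log2 fold change 0.02, 0.878). The intracellular carriers Rbp7 and Fabp5 did not pass, and Rbp2 and Crabp1 were below the filter.

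Among 9 tested dehydrogenases and reductases 1 rose and 2 fell, 33.3% against 18.8% of all tested genes. Dhrs7, a short-chain dehydrogenase of the endoplasmic reticulum, was at 36.1, 36.1, 35.6 and 36.6 FPKM in ob/ob, against 24.6, 28.3, 24.1 and 20.4 FPKM in ob/+ (0.56 ± 0.11 SE, adjusted p = 0.000378). Dhrs4, a peroxisomal reductase of carbonyls with retinaldehyde among its substrates, was at 10.3, 11.3, 9.83 and 9.16 FPKM in ob/ob, against 16.9, 14.7, 16.4 and 14.9 FPKM in ob/+ (-0.59 ± 0.11 SE, adjusted p = 0.000436). Adh5, the formaldehyde-clearing alcohol dehydrogenase, averaged 14.5 ± 0.911 FPKM in ob/ob and 19.1 ± 1.62 FPKM in ob/+ (SD, n = 4 each; -0.38 ± 0.11 SE, adjusted p = 0.0148). The Adh5 call ended without ob/ob 1, ob/ob 2 or ob/+ 1 (adjusted p = 0.0507 to 0.0793), and when totals were taken without the 10 most abundant genes (0.248). Adh1, a retinol-oxidising alcohol dehydrogenase and the most abundant of this list, was at 76.6 ± 5.07 FPKM in ob/ob and 68.7 ± 8.46 FPKM in ob/+ and did not pass (adjusted p = 0.281; SD, n = 4 each).

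**Figure D5:**
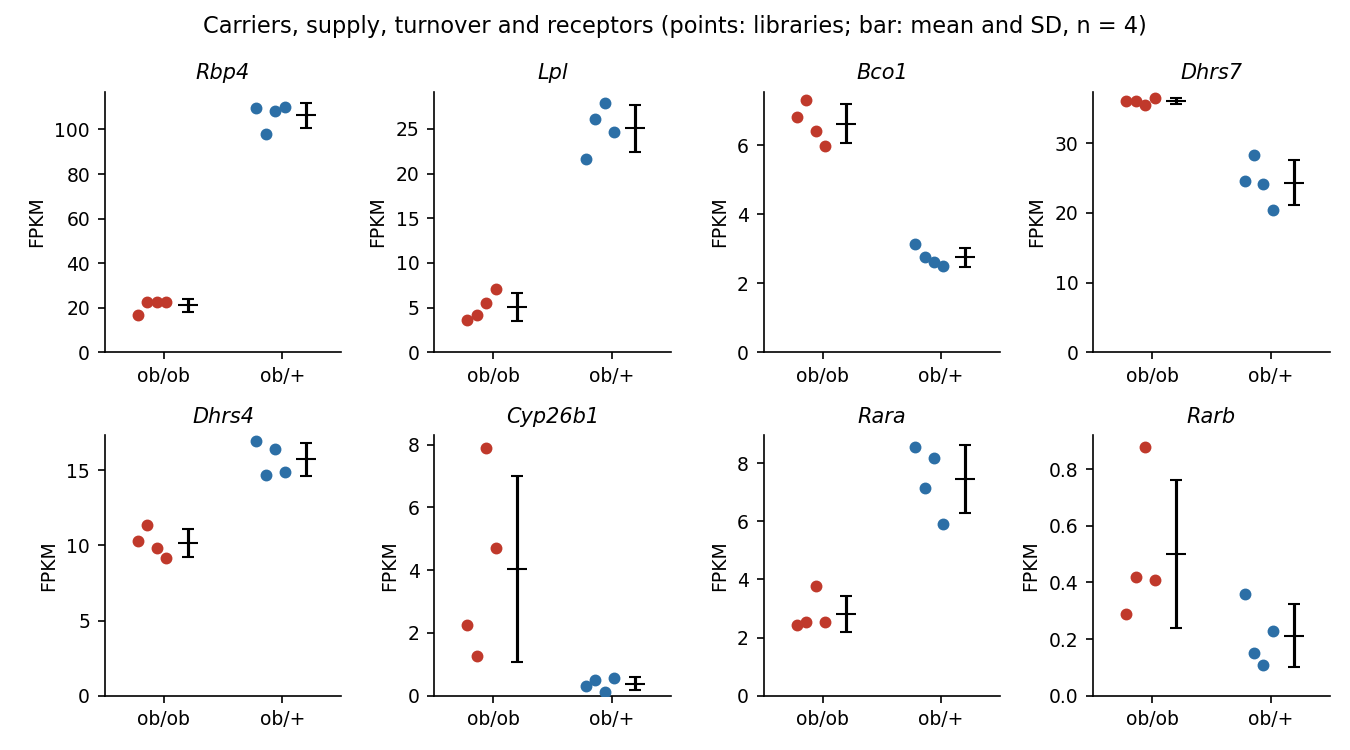
FPKM by library of 8 retinoid genes outside the 7, ob/ob left and ob/+ right, with the mean and SD of 4 beside the points; y axes differ. Rbp4, Lpl, Dhrs4 and Rara are lower and Bco1, Dhrs7 and Cyp26b1 higher in every ob/ob library than in any ob/+ library, and the groups of Rarb overlap.

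Of the enzymes that break retinoic acid down, Cyp26b1 was at 2.24, 1.26, 7.90 and 4.72 FPKM in ob/ob libraries 1 to 4, against 0.32, 0.50, 0.11 and 0.57 FPKM in ob/+ libraries 1 to 4. The groups did not overlap, but ob/ob libraries ranged widely. The log2 fold change was 1.69 ± 0.44 (SE, adjusted p = 0.0451). Cyp26b1 reached 1 FPKM in the 4 ob/ob libraries alone and so entered the test through the group where it is high, which leaves its call as a description. That call is a narrow one: it ended without ob/ob 1, ob/ob 4, ob/+ 1, ob/+ 2 or ob/+ 3 (adjusted p = 0.0741 to 0.125) and with the replicate number as a block (adjusted p = 0.110), the acinar share as a covariate (0.0824) or both acinar-rich libraries, ob/ob 1 and ob/+ 4, left out (0.0703). In those settings the log2 fold change stayed between 1.56 and 1.90. Cyp26a1 and Cyp26c1 stayed at or below 0.07 FPKM. Library ob/ob 3, highest for Cyp26b1, was also highest for Stra6 and for the receptor gene Rarb (0.29, 0.42, 0.88 and 0.41 FPKM in ob/ob, against 0.36, 0.15, 0.11 and 0.23 FPKM in ob/+). The 10 markers of stellate and other mesenchymal cells, which are known to hold Cyp26b1 in other organs, summed to 78.7, 93.4, 115.2 and 104.3 FPKM in ob/ob and to 112.2, 99.2, 97.4 and 109.6 FPKM in ob/+. Among ob/ob libraries, ob/ob 3 was also highest for each of these 10 genes except Pdgfrb and Rgs5. Of the 9 tested, 3 were called lower in ob/ob (Col1a1, Col1a2 and Col3a1) and 2 higher (Acta2 and Rgs5). Pdgfra, Lum and Dcn were lower without overlap between groups but not called. The collagen Col1a1 was at 1.54 ± 0.821 FPKM in ob/ob and 5.80 ± 1.43 FPKM in ob/+ (SD, n = 4 each). The pericyte marker Rgs5 was at 51.9 ± 3.53 FPKM in ob/ob and 33.5 ± 3.58 FPKM in ob/+, the largest part of both sums. The sums did not pass (adjusted p = 0.540, exact permutation), nor did the means of log2 values (-0.54, adjusted p = 0.0571). The part of these cells in the level of Cyp26b1 was not tested.

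Among the receptors, Rara, the retinoic acid receptor alpha, was at 2.44, 2.53, 3.76 and 2.53 FPKM in ob/ob libraries 1 to 4, against 8.55, 7.16, 8.18 and 5.92 FPKM in ob/+ libraries 1 to 4. Every ob/ob library lay below every ob/+ library (2.65-fold lower by means, log2 fold change -1.15 ± 0.14 SE, adjusted p = 7.93e-07). Rarg, Rxra and Rxrb, the other receptors tested, did not pass. Rxrb, the most abundant by the mean of all libraries, was at 10.9 ± 0.604 FPKM in ob/ob and 12.1 ± 1.92 FPKM in ob/+ (SD, n = 4 each; adjusted p = 0.534), but passed as lower without ob/+ 4 (adjusted p = 0.0249), without ob/+ 4 and ob/ob 1 together (0.0422) and when totals were taken without acinar genes (0.00302). Rxra did not overlap between groups, at 11.4 to 12.2 FPKM in ob/ob and 7.67 to 11 FPKM in ob/+ (adjusted p = 0.0636). Of 8 tested genes in the list of retinoic acid targets, 1 fell and none rose by limma, 12.5% against 18.8% of all tested genes. That list leaves out genes placed under other roles, Cyp26b1 and Rarb among them, so the count does not cover every gene that may respond to retinoic acid. The homeobox gene Meis2 was at 18.0 ± 1.76 FPKM in ob/ob and 23.2 ± 1.42 FPKM in ob/+ (SD, n = 4 each; -0.35 ± 0.11 SE, adjusted p = 0.0226). The Meis2 call ended without ob/ob 1, 2 or 4 and without ob/+ 1, 2 or 3, each left out alone (adjusted p = 0.0568 to 0.0932), and when totals were taken without the 10 most abundant genes (0.320).

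The genes most like Aldh1a3, by Pearson's r of log2(FPKM + 1) over the 8 libraries among tested genes, were Egf, C1qtnf1, Cd44, Ube2e2 and Dio1 (r = 0.995 to 0.999). With genotypes so far apart in Aldh1a3, r here mostly follows how cleanly a gene separates them, whatever the size of its change. Ube2e2 was at 10.3 ± 0.188 FPKM in ob/ob and 7.87 ± 0.107 FPKM in ob/+ (SD, n = 4 each). C1qtnf1, a secreted protein of the C1q and tumour necrosis factor related family, was at 15.1 ± 0.682 FPKM in ob/ob and 1.12 ± 0.078 FPKM in ob/+. Cd44, a receptor for hyaluronan, was at 24.5 ± 1.40 FPKM in ob/ob and 5.77 ± 0.616 FPKM in ob/+ (SD, n = 4 each). Next after Aldh1a3 by log2 fold change came Reg3a (4.57 ± 1.07 SE), Reg2 (4.30 ± 0.96 SE), Reg3g (3.90 ± 0.71 SE), Serpina7 (3.24 ± 0.33 SE) and Prss1 (3.18 ± 0.25 SE), with larger errors than Aldh1a3 in each case. Symbols that start with Gm and a digit or end in Rik were left out of this order and of the searches by r. Aldh1a1 was most like Pdia2 and Cela2a, both known from acinar cells, and Psmb10 (r = 0.953 to 0.958). Rdh10 was most like Tead1, C77080 and Zfp408 (r = 0.974 to 0.986), and Dhrs3 like Ces1d, Tcea3 and Klk1b3 (r = 0.879 to 0.911).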

How the data were processed

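Islet RNA was sequenced in 8 libraries, grouped by the labelled genotype. The deposited tables are taken to hold FPKM. Neither labels nor headers name that unit, which was read from how the numbers behave. The submitters' processing notes name Trimmomatic 0.36, DESeq2 1.20.0, mm10 and GRCm38, with no role for any. The aligner and the quantifier: not given in the sources used here. Of 20715 listed genes, 3314 had no value. As values are relative to the library total, a larger share of insulin or acinar RNA lowers the rest. Low values tended weakly towards whole multiples of 1 step per library (mean cosine 0.235 to 0.299), giving a rough relative depth of 0.984 to 1.03. The absolute depth is unknown, which leaves counting intervals out.

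The filter asked for 1 FPKM in 4 or more libraries and left 11747 genes. Their log2(FPKM + 1) values entered limma 3.58.1 under R 4.3.3 (eBayes, trend and robust, two-sided). A call is an adjusted p (Benjamini-Hochberg, over all of them) under 0.05. Where 1 library was left out, the filter asked for 3. Summed markers of 10 cell types were compared by exact two-sided permutation over 70 assignments (SciPy 1.17.1). Libraries correlated at 0.987 to 0.996 within a genotype and at 0.976 to 0.982 across genotypes, with no duplicates. Coding sequences are the longest open reading frames of GENCODE M21 transcripts, aligned with Biopython 1.88. The 7 genes and the lists were chosen with earlier results of these data known. Named were the 7, every called gene and the most abundant tested gene of each list, and the genes most like the tested members. Rxra, Rarb, Cyp26a1, Lrat, Aldh1a7 and single marker genes were named after their values were seen.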

Additional observations from a re-analysis of the deposited data

Results flagged for a closer look

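Among 70 groups of 4 libraries looked at, 6 held a library far from the other 3 by Dixon's criterion, where chance flags about 1 group in 20. Stra6 was at 0.47 FPKM in ob/ob 3, with 0.06 FPKM in each of the other 3. Rbp4 was at 16.48 FPKM in ob/ob 1, with 22.37 to 22.67 FPKM in the others, and at 98.15 FPKM in ob/+ 2, with 108.1 to 109.9 FPKM in the others. Rara was at 3.76 FPKM in ob/ob 3, with 2.44 to 2.53 FPKM in the others. Rxrb was at 10.01 FPKM in ob/ob 4, with 11.09 to 11.27 FPKM in the others, and at 9.2 FPKM in ob/+ 4, with 12.86 to 13.34 FPKM in the others.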

How the results depend on the processing

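The number of genes called over the whole table was 2208. It was 3429 with median centring, 3465 with upper-quartile scaling, 7552 with totals taken without acinar genes, 4242 without ob/+ 4 and ob/ob 1 (chosen after seeing the data) and 1560 to 5003 on leaving out single libraries, the most without ob/+ 4. Retinoid pathway calls were 10, against 19 with acinar-free totals, 12 without ob/+ 4 and ob/ob 1, and 6 to 15 on leaving out single libraries. Other Aldh calls were 4, against 10 with acinar-free totals and 4 to 5 on leaving out single libraries. The log2 difference of Aldh1a3 was 4.98 with acinar-free totals, 4.99 with the acinar covariate, 6.26 and 5.67 at pseudocounts of 0.1 and 0.5, and 5.07 to 5.29 on leaving out single libraries. At a pseudocount of 0.1 that of Aldh1a1 was -0.995, of Aldh1a2 0.45, of Crabp2 0.36 and of Stra6 0.62. With the acinar covariate Aldh1a1 was at -0.20 and Dhrs3 at 0.27. Crabp2 was at 0.12 with median centring and 0.0881 at a pseudocount of 0.5. On leaving out single libraries the differences ran from -0.68 to -0.42 for Aldh1a1, 0.03 to 0.15 for Aldh1a2, -0.13 to 0.06 for Rdh10, -0.15 to 0.10 for Dhrs3, 0.03 to 0.06 for Crabp2 and 0.02 to 0.17 for Stra6, and the gap in the Aldh1a3 share from 64.6 to 75.8 percentage points. Aldh18a1 changed sign, to -0.29, with acinar-free totals. With the replicate number as a block 2674 genes were called (11 of the retinoid pathway, 4 other Aldh). Deviations of same-numbered libraries correlated at -0.22, 0.21, 0.17 and 0.12, and those of differently numbered libraries at -0.19 to 0.19. So few values cannot decide whether the numbers pair mice, which no label says. Of 10 summed marker lists 6 differed (adjusted p = 0.0476 each, exact permutation): beta and duct higher, alpha, delta and PP, mesothelium and Schwann cell lower. Each of the 6 stood at the smallest p that 4 against 4 allow, 0.0286 before adjustment. As means of log2 values beta and duct had the opposite sign (-0.31 and -0.02) and none passed (0). The alpha, delta and PP, stellate and mesenchymal, mesothelium and Schwann cell lists were lower there, each at adjusted p = 0.0571 (exact permutation). That is the smallest p of 4 against 4 after adjustment in that setting, so their not passing is not read as a loss. With 7 libraries the assignments are too few for any list to pass (0 to 0), so nothing is read from that setting. Of 340 other values for named pathway genes 311 kept their side of the threshold, among them all 20 settings each of Bco1, Lpl, Rbp4, Dhrs7, Dhrs4, Rara, Aldh3b1, Aldh5a1 and Aldh1l2. Depth limits what can be said of Aldh1a2, Crabp2 and Stra6, whose values are near the rounding of the files.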
